A study of Mus musculus with 171 samples.

Results

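The genes described here are 10 members of the bone morphogenetic protein (BMP) pathway in single cells of early mouse embryos that lack Stat3 or carry it. They are the ligands Bmp2, Bmp4 and Bmp6, the receptors Bmpr1a and Bmpr2, the signal transducers Smad1 and Smad5, and the target genes Id1, Id2 and Id3. They were chosen by gene symbol, and all 10 were found among the 49671 gene rows of the count table. Their levels were read in 171 cells from 17 embryos, in 6 groups set by stage, lineage and genotype.

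Mutant (MUT) embryos carry the genotype Stat3 -/-, and wild-type (WT) embryos carry Stat3 +/+. The labels give no strain, allele or treatment, and neither genotype carries another named change. At E3.75 (E, embryonic day), MUT embryos gave 14 primitive endoderm (PrE) and 9 epiblast (EPI) cells from 4 embryos. WT embryos of that stage gave 10 PrE and 19 EPI cells from 3 embryos. At E3.5, inner cell mass (ICM) cells numbered 55 from 5 MUT embryos and 64 from 5 WT embryos. For the EPI and PrE cells the stage in the sample title (E3.75) disagrees with that in the source field (E3.5), and the stage here follows the title. Embryos are told apart by the first number in the sample title, a reading that no label spells out. How the lineage of a cell was decided is not stated in the labels. If the same transcriptomes were used for it, comparisons of PrE with EPI are not independent of that choice.

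BMP ligands bind pairs of type I and type II receptor kinases at the cell surface. The type I receptor phosphorylates SMAD1 and SMAD5, which enter the nucleus with SMAD4 and activate genes such as Id1, Id2 and Id3. ID proteins have no DNA-binding domain of their own and hold E proteins, a class of transcription factor, away from DNA. In mouse embryonic stem cells, BMP4 acting through Id genes together with LIF acting through STAT3 maintains the undifferentiated state. In the blastocyst, EPI gives rise to the fetus and PrE to yolk sac endoderm.

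The promoters of Bmp4, Id3 and Id2 are shown as examples for the comparison of lineages. With all labelled cells counted, Bmp4 and Id3 stood lower in PrE than in EPI of every embryo, and Id2 stood higher in most. For Bmp4 and Id2 the order in WT embryo 1 rests on a single cell, described below. Of the genes shown, only Bmp4 passed the main test between PrE and EPI, in MUT embryos. Bmp6, which also passed it there, is not shown. Each stretch runs 5′ to 3′ on the strand of the gene, from 250 bases before to 50 bases after a RefSeq transcript start (build GRCm38.p6). Capitals mark matches, on either strand, to the SMAD box CAGAC, the GC-rich SMAD site GGCGCC, the STAT motif TTCNNNGAA and the E-box CANNTG.
Bmp4, chr14:46390620-46390919, minus strand: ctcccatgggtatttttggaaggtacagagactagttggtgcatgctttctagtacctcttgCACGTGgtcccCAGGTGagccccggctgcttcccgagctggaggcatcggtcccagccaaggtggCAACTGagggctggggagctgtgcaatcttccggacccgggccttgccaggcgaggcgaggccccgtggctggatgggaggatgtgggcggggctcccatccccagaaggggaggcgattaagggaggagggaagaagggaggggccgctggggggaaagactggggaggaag
Id3, chr4:136143572-136143871, plus strand: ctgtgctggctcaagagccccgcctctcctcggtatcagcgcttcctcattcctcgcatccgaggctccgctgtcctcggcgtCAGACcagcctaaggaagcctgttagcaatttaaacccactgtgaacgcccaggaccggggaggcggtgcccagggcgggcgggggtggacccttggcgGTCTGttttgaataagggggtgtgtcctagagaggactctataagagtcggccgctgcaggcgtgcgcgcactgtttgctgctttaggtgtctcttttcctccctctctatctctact
Id2, chr12:25096043-25096342, minus strand: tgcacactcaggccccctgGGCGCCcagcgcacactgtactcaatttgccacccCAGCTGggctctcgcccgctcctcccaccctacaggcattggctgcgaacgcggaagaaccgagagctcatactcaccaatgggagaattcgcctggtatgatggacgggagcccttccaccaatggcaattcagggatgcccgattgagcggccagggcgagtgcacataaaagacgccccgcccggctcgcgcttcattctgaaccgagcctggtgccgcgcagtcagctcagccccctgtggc
The Bmp4 stretch held 3 E-boxes and 0 matches to the other motifs. The Id3 stretch held 2 SMAD boxes and 0 of the others, and the Id2 stretch held 1 GGCGCC site and 1 E-box. No matches overlapped. Among 32851 promoters of the same length, 49.6% held CAGAC, 11.9% GGCGCC, 8.30% TTCNNNGAA and 72.3% CANNTG. A match describes the letters and does not show binding. RefSeq promoters were matched for 8 of the 10 members.

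The embryo is the replicate: the raw counts of its cells of 1 lineage were added up, giving 24 sums. Values per embryo are counts per 1000000 after TMM scaling (CPM), and values per cell are counts per 1000000 of that cell. Totals ran from 163822 to 25095390 counts per cell and from 8117787 to 122331780 per sum. The MUT EPI sum of embryo 2 and the WT PrE sum of embryo 3 each hold 1 cell. Stat3 stood at 9.79 to 21.2 CPM in MUT PrE against 24.9 to 133 in WT PrE, at 0.0292 to 26.0 in MUT EPI against 87 to 164 in WT EPI, and at 0.121 to 13.2 in MUT ICM against 44.9 to 102 in WT ICM. No MUT embryo reached a WT embryo of its lineage, although edgeR's quasi-likelihood test gave adjusted p values of 0.737, 0.972 and 0.684. DESeq2 gave 0.00289 in PrE and 0.00471 in ICM, and none in EPI. All 9 MUT and 19 WT cells labelled EPI had a larger sum over 8 EPI markers than over 10 PrE markers, and so did 0 of 14 MUT and 1 of 10 WT cells labelled PrE.

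In WT PrE embryo 1, 1 cell stood apart from its label. It carried the trophectoderm genes Krt8 at 5848, Krt18 at 3514, Gata3 at 204, Elf5 at 141 and Cdx2 at 99.4 CPM, and the PrE factors Gata4 and Sox17 at 0.934 and 0.934 CPM. Its 10 trophectoderm markers summed to 10268 CPM, against 57.1 to 1395 CPM in the 14 MUT PrE cells and 7.48 to 870 CPM in the other 9 WT PrE cells. Cdx2 and Elf5 were at 0 in all 14 MUT PrE cells. Several results of the WT PrE group that move without this cell are given both ways. At E3.75 all 4 MUT embryos were male by Y-linked and Xist counts, and 2 of the 3 WT embryos were female, so genotype and sex largely coincide.

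**Figure D1:**
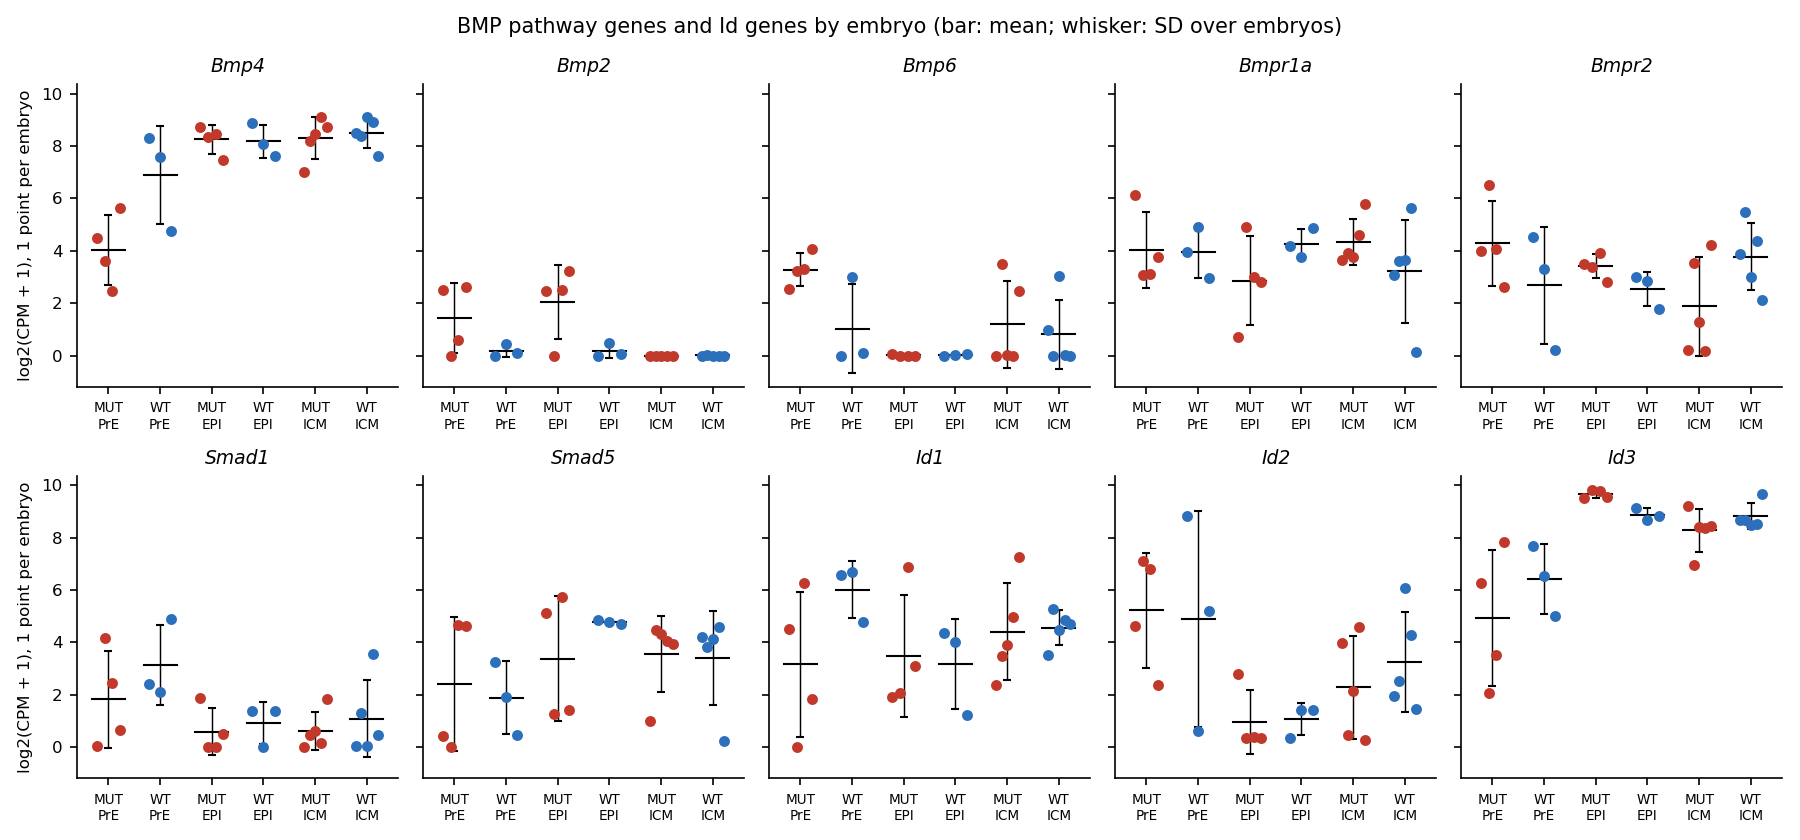
Level of the 10 genes in each embryo, as log2(CPM + 1), in 6 groups (red MUT, blue WT); bars are means and whiskers SD over 3 to 5 embryos on that scale. Bmp4 is low in MUT PrE, while WT PrE embryos 1 and 2, at 316 and 191 CPM, lie among or near the EPI embryos. Id3 is lower in every PrE embryo than in every EPI embryo, and Bmp2 lies at or near 0 in all ICM embryos.

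Among the ligands, Bmp4 was by far the most abundant and was found in all 171 cells. Bmp4 (ENSMUSG00000021835, chromosome 14, 46383520 to 46390669, mm10, minus strand) encodes a ligand that is central to germ layer and germ cell formation. In EPI it averaged 321 ± 106 CPM in 4 MUT embryos and 311 ± 140 CPM in 3 WT embryos (SD). In the ICM it averaged 349 ± 156 CPM in MUT and 385 ± 140 CPM in WT (SD, n = 5 each). PrE was lower: MUT embryos 1, 2, 4 and 5 stood at 21.4, 11.1, 4.50 and 48.6 CPM, and WT embryos 1, 2 and 3 at 316, 191 and 26.4 CPM. All 4 MUT PrE sums lay below all 4 MUT EPI sums, whereas the WT PrE and WT EPI sums overlapped.

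In PrE of MUT embryos, relative to EPI, Bmp4 fell by 3.95 on the log2 scale (SE 0.69, edgeR adjusted p = 0.0245). The lineages come from the same embryos, and with the embryo as a block the call was lost (log2 fold change −4.43, SE 0.81, adjusted p = 0.108). In MUT PrE, relative to MUT ICM, Bmp4 fell by 4.07 (SE 0.71, adjusted p = 0.0287). Both contrasts use the same 4 MUT PrE sums and are not independent. The contrast with ICM also spans a difference in counts per cell and in the letter of the sample titles. In WT embryos the changes were −0.77 (SE 0.81, adjusted p = 0.961) against EPI and −1.12 (SE 0.65, adjusted p = 0.467) against ICM. Both WT fits include the cell led by trophectoderm markers. Without it the WT PrE mean was 232 ± 229 CPM, against 178 ± 145 CPM with it (SD). Whether the PrE-to-EPI difference itself differs between genotypes was tested as an interaction, which gave −3.14 (SE 1.08, p = 0.0120, adjusted p = 0.719). That fit had no block on the embryo, and 0 of 7 alternative fits, among them that with the block, called Bmp4.

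Leaving out embryos decided these calls of Bmp4. Against EPI, the MUT call held without the EPI cells of embryo 5 or the PrE cells of embryos 4 or 5 (adjusted p 0.0142 to 0.0408). It was lost without the EPI cells of embryos 1, 2 or 4 or the PrE cells of embryos 1 or 2 (adjusted p 0.0535 to 0.0991). Against ICM it was lost without ICM embryos 18, 23 or 24 or the PrE of embryos 1, 2 or 4 (adjusted p 0.0563 to 0.109). The log2 change stayed between −4.86 and −3.61 in all these fits.

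Within single embryos, with all labelled cells counted, Bmp4 was lower in PrE than in EPI in 7 of 7. The differences on the log2(CPM + 1) scale were −4.26, −4.74, −6.02 and −1.84 in MUT embryos 1, 2, 4 and 5, and −0.56, −0.49 and −2.85 in WT embryos 1, 2 and 3. The 2 smallest belonged to WT embryos 1 and 2, and that of embryo 1 rests on the cell led by trophectoderm markers. Without that cell, PrE of WT embryo 1 no longer stood below its EPI, at 467 CPM. A fit of both genotypes with the embryo as a block, added after the separate fits were seen, gave −3.0 (SE 0.81, p = 0.00504, adjusted p = 0.0982).

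**Figure D2:**
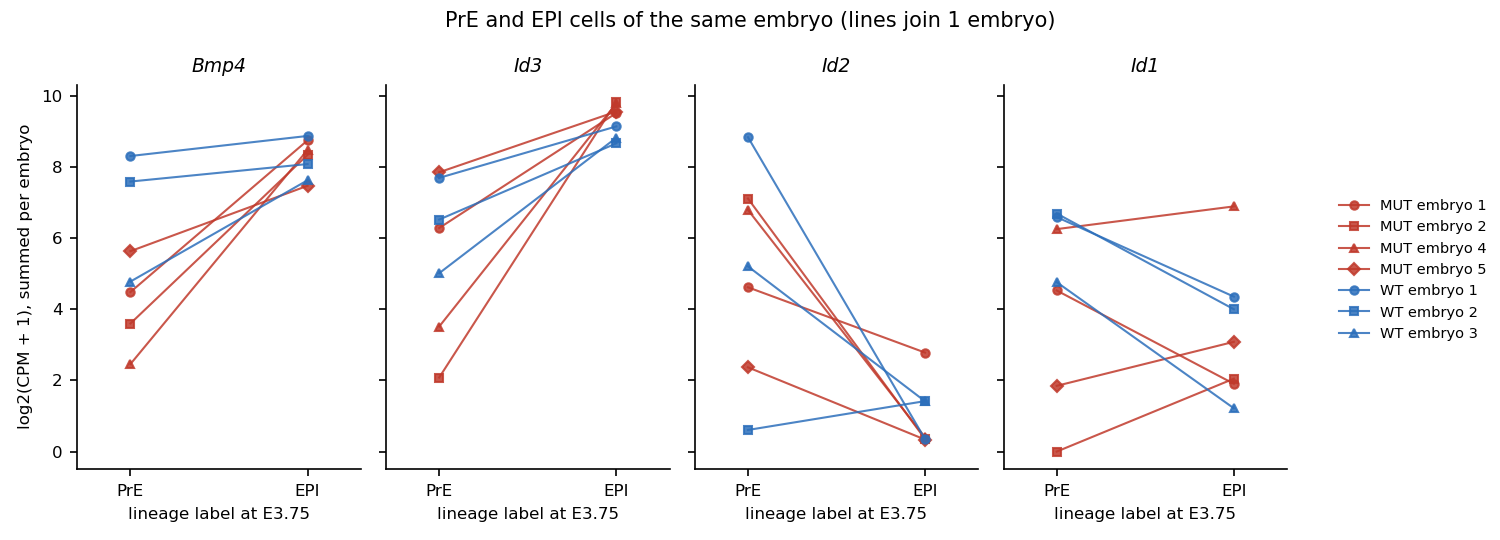
Summed level, as log2(CPM + 1), of Bmp4, Id3, Id2 and Id1 in PrE and EPI cells of the same embryo; each line is 1 of 7 embryos (red MUT, blue WT). Bmp4 and Id3 lines rise toward EPI in 7 of 7 embryos, and Id2 lines fall in 6 of 7, with all labelled cells counted. Without the cell led by trophectoderm markers, Bmp4 and Id2 of WT embryo 1 go the other way.

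Cells labelled PrE varied widely in Bmp4. More than 100 CPM was found in 1 of 14 MUT PrE cells and 4 of 10 WT PrE cells, against 8 of 9 MUT EPI and 18 of 19 WT EPI cells. This limit was set after the values were seen. The MUT cell, of embryo 5, held 220 CPM of Bmp4 with 12.5 CPM of Sox7 and 1.70 CPM of Dab2, genes of maturing PrE. The WT cells held 1091 CPM of Bmp4 with 0.676 CPM of Sox7 (embryo 2), 544 with 18 and 440 with 13.8 CPM (embryo 1), and 129 with 116 CPM (embryo 2). The other 13 MUT PrE cells held 52.6 to 645 CPM of Sox7 with 34.6 CPM of Bmp4 or less.

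Across WT PrE cells Spearman's rho of Bmp4 was −0.503 with Sox7, −0.539 with Dab2 and 0.661 with Id3 (10 cells of 3 embryos). Without the cell led by trophectoderm markers these were −0.817, −0.867 and 0.900 (9 cells). Across the 14 MUT PrE cells they were 0.134, −0.367 and 0.385. PrE genes did not all go 1 way: with Gata4, a PrE factor, rho of Bmp4 in WT PrE was 0.309. It was 0.117 without the cell led by trophectoderm markers, and −0.0110 in MUT PrE. The cells share embryos, and in WT PrE both Bmp4 and Id3 also followed the total count of the cell (rho −0.588 and −0.733). The PrE-labelled WT cells with 440 and 544 CPM of Bmp4 also held EPI marker sums of 2000 and 1787 CPM, against PrE marker sums of 1717 and 1792 CPM.

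**Figure D3:**
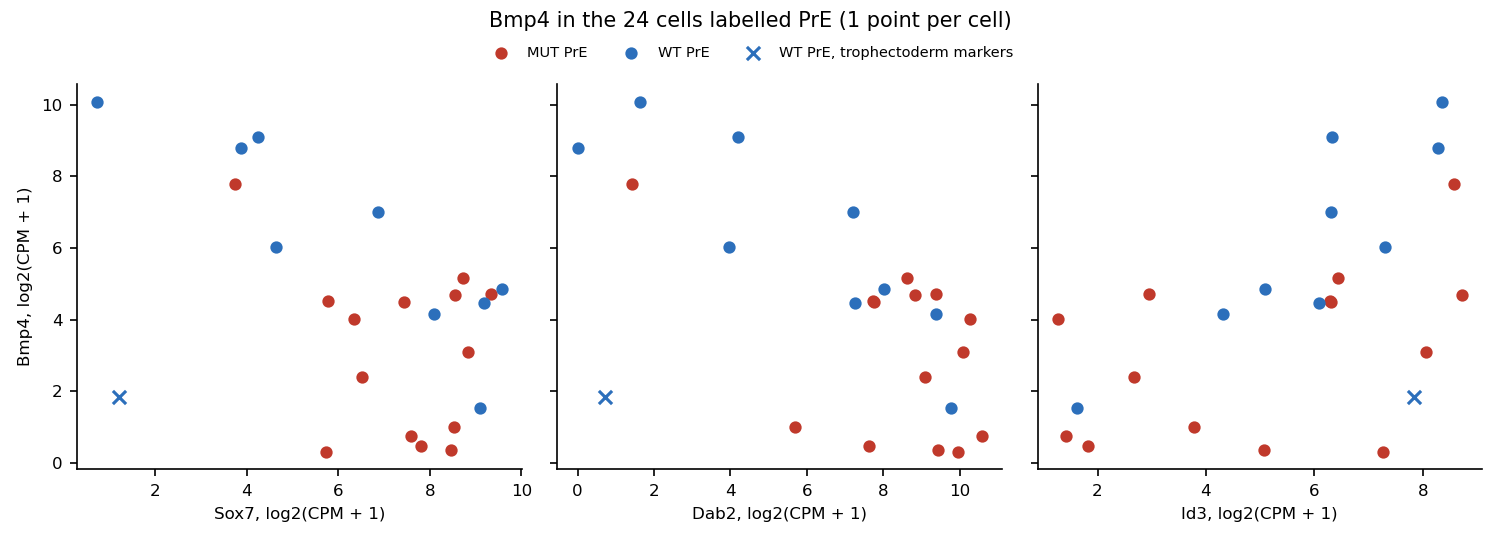
Bmp4 in each of the 24 cells labelled PrE against Sox7, Dab2 and Id3, all as log2(CPM + 1); red points are 14 MUT cells, blue points are WT cells, and the cross is the WT cell with trophectoderm markers. The 4 WT cells over 100 CPM of Bmp4 have 0.676 to 116 CPM of Sox7.

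Bmp6 (ENSMUSG00000039004, chromosome 13, 38345107 to 38500302, plus strand), another BMP ligand, was found in 35 cells. MUT PrE embryos 1, 2, 4 and 5 held 4.87, 8.32, 8.82 and 15.9 CPM, and WT PrE embryos 1, 2 and 3 held 0, 6.99 and 0.0782 CPM. In EPI no embryo of either genotype passed 0.0429 CPM. By cell, 11 of 14 MUT PrE and 2 of 10 WT PrE cells had a count, against 1 of 9 MUT EPI and 5 of 19 WT EPI cells. After thinning each cell to 1000000 counts, the expected shares were 61.3% of MUT PrE and 10.8% of WT PrE cells, against 1.01% of MUT EPI and 2.42% of WT EPI cells.

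Bmp6 rose in MUT PrE relative to MUT EPI (log2 fold change 9.32, SE 1.89, adjusted p = 0.0459). The MUT EPI sums hold 1 count of Bmp6, against 1840 in MUT PrE, a ratio of pooled rates of 1075 with an exact 95% counting interval of 193 to 42486. The fitted change depends on the prior count, and Bmp6 passed the filter on low counts through the PrE sums alone. With the embryo as a block the adjusted p was 0.162, without the filter it was 0.119, and leaving out any of the 8 sums gave 0.103 to 0.133. MUT PrE against WT PrE gave 2.01 (SE 2.09, adjusted p = 1.0) for Bmp6, with 1.43 to 7.98 when 1 sum was left out, the highest without WT embryo 2. In the ICM Bmp6 lay over 1 CPM in MUT embryos 10 and 24 (10.2 and 4.54 CPM) and in WT embryo 20 (7.15 CPM). MUT ICM embryo 10 also had the highest PrE marker sum of the ICM, 2799 CPM, against 92.4 to 1066 in the other MUT and 287 to 940 in the WT embryos.

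Bmp2 (ENSMUSG00000027358, chromosome 2, 133552159 to 133562885, plus strand), a ligand closely related to BMP4, was found in 13 cells. At E3.75 it reached 5.14 CPM in MUT PrE against 0.372 in WT PrE, and 8.36 in MUT EPI against 0.411 in WT EPI. Embryo 2 stood at 0 in both MUT lineages, so the genotypes overlapped. The log2 fold changes of 4.05 in PrE (SE 2.42) and 4.86 in EPI (SE 2.57) had adjusted p values of 1.0 and 1.0. In the ICM 0 of 55 MUT cells had a count, which allows a share of cells with a count of up to 5.45% (counting error only), and 1 of 64 WT cells had 3 counts.

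The genotype comparison asks what loss of Stat3 changes within a lineage. No member passed the threshold in PrE, EPI or ICM, as no gene did: 0% of 11765, 0% of 12298 and 0% of 12270 genes were called by edgeR. At an unadjusted p under 0.05 edgeR gave Bmp4 of 10 members in PrE, Id3 of 9 in EPI and 0 of 8 in ICM, where 4.63%, 4.63% and 6.64% of all genes had such a p. DESeq2 called the same 2 members and 0 in ICM, where it called 1.37% of genes in PrE, 1.6% in EPI and 0.905% in ICM. Limma-trend called 0 members in each, with 0%, 0% and 0.0163% of genes. In PrE the median log2 change of the 10 members was 0.03, the same as the 0.03 of all genes tested. In EPI it was 0.53 over 9 members against 0.04, and in ICM −0.27 over 8 members against −0.05.

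Id3 in EPI was the member that set the genotypes apart most closely. Id3 (ENSMUSG00000007872, chromosome 4, 136143497 to 136145755, plus strand) stood at 730, 906, 882 and 752 CPM in MUT EPI embryos 1, 2, 4 and 5, and at 563, 404 and 451 CPM in WT EPI embryos 1, 2 and 3. The lowest MUT embryo lay above the highest WT embryo. The log2 fold change was 0.84 (SE 0.18, p = 0.00169), with an edgeR adjusted p of 0.325 and a DESeq2 adjusted p of 0.00682. It stayed between 0.73 and 0.98 when any embryo was left out, and was 0.92 with embryo sex and 0.89 with the title letter as a covariate. At E3.75 title letter B occurred in MUT only and C in WT only. WT embryo 3 was the only WT embryo that was male or had letter A, as MUT embryos 4 and 5 had. Both covariate fits therefore rest on WT embryo 3 alone for the WT level. They cannot separate genotype from what is particular to that embryo. The EPI marker sums were 1577 to 3411 CPM in MUT EPI and 2900 to 3446 CPM in WT EPI.

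Bmp4 in PrE had the largest drop among the members in a genotype comparison, with a log2 fold change of −3.09 (SE 0.97, p = 0.0130, edgeR adjusted p = 0.967). DESeq2 called it at an adjusted p of 0.0348. MUT embryo 5 at 48.6 CPM lay above WT embryo 3 at 26.4 CPM, so the groups overlapped. The change was −3.44 without the cell led by trophectoderm markers, −2.34 without WT embryo 1 and −3.87 without MUT embryo 5. With embryo sex as a covariate it was −0.33, and with the title letter −0.04. Both fits take the WT level from embryo 3 alone, the single-cell sum, and cannot separate genotype from what is particular to that cell. In these fits Stat3 itself moved from −2.86 to −0.98 and −1.36. EPI markers summed to 180 to 594 CPM in MUT PrE and 265 to 1262 CPM in WT PrE, and their part in the result was not tested.

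In the ICM the members with counts in most cells overlapped between genotypes. Id3 stood at 590, 122, 339, 332 and 344 CPM in MUT embryos 2, 10, 18, 23 and 24, and at 412, 409, 360, 364 and 819 CPM in WT embryos 13, 16, 20, 21 and 22 (log2 fold change −0.42, SE 0.42, adjusted p = 0.922). The lowest value was in MUT embryo 10, the embryo with the highest PrE marker sum. EPI markers did not overlap, at 403 to 1028 CPM in MUT ICM and 2059 to 2748 CPM in WT ICM, and their part in the levels of the members was not tested. Across 55 MUT ICM cells Spearman's rho of Id3 was 0.579 with Nanog, an EPI factor, and −0.564 with Gata4, a PrE factor. Across 64 WT ICM cells it was 0.240 and −0.132. Cells share embryos, and rho of Id3 with the total count was −0.0801 in MUT and −0.0536 in WT.

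**Figure D4:**
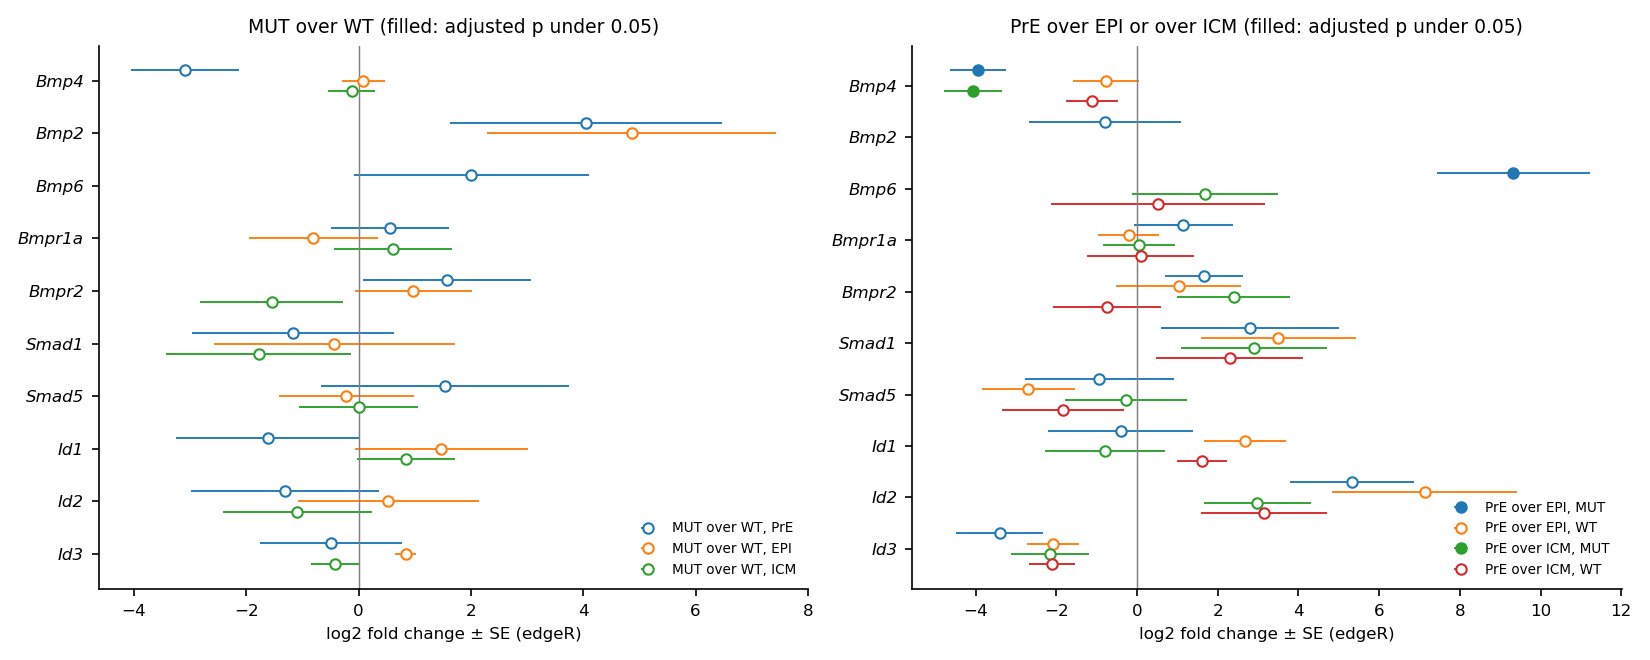
edgeR log2 fold changes with SE for the 10 genes; left, MUT over WT in 3 lineages; right, PrE over EPI and over ICM in each genotype. Filled points passed an adjusted p of 0.05: Bmp4 against EPI and ICM, and Bmp6 against EPI, all in MUT; absent points did not pass the filter on low counts.

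The effect of genotype was also set against itself between lineages. Interaction fits called 0% of 14220 genes for PrE minus EPI, 0% of 15756 for EPI minus ICM and 0% of 15614 for PrE minus ICM. At an unadjusted p under 0.05 they gave 1, 2 and 1 of the 10 members, where 5.51%, 9.25% and 9.2% of all genes had such a p. Bmp4 had −2.94 for PrE minus ICM (SE 0.93, p = 0.00517, adjusted p = 0.385), which DESeq2 called at an adjusted p of 0.0494 and limma-trend did not call. Id3 had 1.24 for EPI minus ICM (SE 0.54, p = 0.0339, adjusted p = 0.478), and Bmp2 6.77 (SE 3.14, p = 0.0482, adjusted p = 0.535). DESeq2 and limma-trend called 0 members in the PrE minus EPI and the EPI minus ICM interactions. In the order given above DESeq2 called 2.46%, 3.37% and 3.62% of all genes, and limma-trend 0% in each.

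The lineage comparison asks how PrE differs from EPI. In MUT embryos 2 of 10 members passed, Bmp4 lower and Bmp6 higher, where 1.65% of 10698 genes were called (177, or 74 with the embryo as a block). Bmp6 was among the members tested only through its PrE sums. At an unadjusted p under 0.05 edgeR also gave Id2 and Id3, where 10.2% of all genes had such a p. DESeq2 called Bmp4, Bmp6 and Id2 (adjusted p of Id2 0.000262), with 6.02% of genes called and no p for Id3. Id2 too passed the filter on low counts through its PrE sums, since its MUT EPI sums held 137, 3, 10 and 9 counts. Limma-trend called Bmp4, Bmp6 and Id3 (adjusted p of Id3 0.0282), with 3% of genes called.

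In WT embryos 0 of 8 members passed between PrE and EPI, where 0.0314% of 12733 genes were called (4, or 0 with the block). At an unadjusted p under 0.05 edgeR gave Id1, Id2 and Id3, where 9.35% of all genes had such a p. DESeq2 called Id2 and Id3, with 5.91% of genes called, and limma-trend called 0 members, with 0.055% of genes. In the fit of both genotypes 0 of 9 members passed, where 3.21% of 11044 genes were called. The unadjusted p was under 0.05 for Bmp4, Id2 and Id3 and for 14.6% of all genes. Limma-trend called Bmp4 and Id3, with 6.18% of genes, and edgeR without the block called Id2 and Id3, with 3.95% of genes.

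Between stages the shares of genes called by edgeR were 0.308% of 13972 for EPI against ICM in WT, 0.0682% of 11733 in MUT, 0.349% of 13190 for PrE against ICM in WT and 0.507% of 12040 in MUT. Of the members, Bmp4 in MUT PrE against ICM was the one called. In each comparison with ICM, the E3.75 cells carried title letters A to C and the ICM cells D to H. Median totals per cell were 3404703 counts in MUT ICM and 5064704.5 in WT ICM, against 10407966 to 11168799 in the E3.75 groups. Stage therefore cannot be told apart from title letter or depth. In EPI against ICM of WT, edgeR gave 1 of 8 members an unadjusted p under 0.05 (14.1% of all genes), DESeq2 called 1 (8.07% of genes) and limma-trend 3 (29% of genes). In EPI against ICM of MUT those counts were 1 of 8 members (8.08% of all genes), 0 (3.62%) and 1 (1.9%). In PrE against ICM of WT they were 2 of 9 members (14.8% of all genes), 1 (9.58%) and 4 (15.7%). In PrE against ICM of MUT they were 3 of 9 members (9.46% of all genes), 1 (4.75%) and 2 (5.23%).

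Id3 followed Bmp4 between the lineages. It stood at 76.9, 3.23, 10.4 and 230 CPM in MUT PrE embryos 1, 2, 4 and 5 and at 206, 90.8 and 31.3 CPM in WT PrE embryos 1, 2 and 3. Every PrE sum lay below every EPI sum, and Id3 was lower in PrE in 7 of 7 embryos, by 1.45 to 7.74 on the log2(CPM + 1) scale. The separate fits gave −3.41 in MUT (SE 1.07, adjusted p = 0.213) and −2.08 in WT (SE 0.65, adjusted p = 0.335), and the fit of both genotypes −3.57 (SE 0.88, p = 0.00290, adjusted p = 0.0709). Without the embryo block the last adjusted p was 0.0398. Against ICM, Id3 had −2.17 in MUT PrE (SE 0.97, adjusted p = 0.501) and −2.11 in WT PrE (SE 0.58, adjusted p = 0.153), and the WT groups did not overlap.

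Id2 went the other way. Id2 (ENSMUSG00000020644, chromosome 12, 25093799 to 25097140, minus strand) stood at 23.5, 137, 110 and 4.16 CPM in MUT PrE embryos and at 456, 0.524 and 35.9 CPM in WT PrE embryos. In EPI it stood at 5.88, 0.277, 0.317 and 0.263 CPM in MUT and at 0.275, 1.67 and 1.66 CPM in WT. With all labelled cells counted, Id2 was higher in PrE in 6 of 7 embryos, WT embryo 2 being the exception. WT embryo 1 was higher only through the cell led by trophectoderm markers. The separate fits gave 5.32 in MUT (SE 1.54, adjusted p = 0.162) and 7.13 in WT (SE 2.29, adjusted p = 0.353), and the fit of both genotypes 5.30 (SE 1.76, adjusted p = 0.181).

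The 456 CPM of WT embryo 1 came from the cell led by trophectoderm markers, which held 1354 CPM of Id2, while the other 2 PrE cells of that embryo held 0 and 0 CPM. Without that cell the WT change was 3.35 (adjusted p = 0.903) and the fit of both genotypes gave 3.44 (adjusted p = 0.514). Without the embryo block the both-genotype fit had called Id2 at an adjusted p of 0.0214. Among MUT PrE cells the highest Id2 values were 596, 140, 118, 67.3 and 40.2 CPM. Their trophectoderm marker sums of 783, 1395, 570, 593 and 746 CPM were the 5 highest of the 14 cells, with Cdx2 and Elf5 at 0 in each. Spearman's rho of Id2 with Krt18 was 0.761 over those 14 cells, and the part of these markers in the result was not tested.

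**Figure D5:**
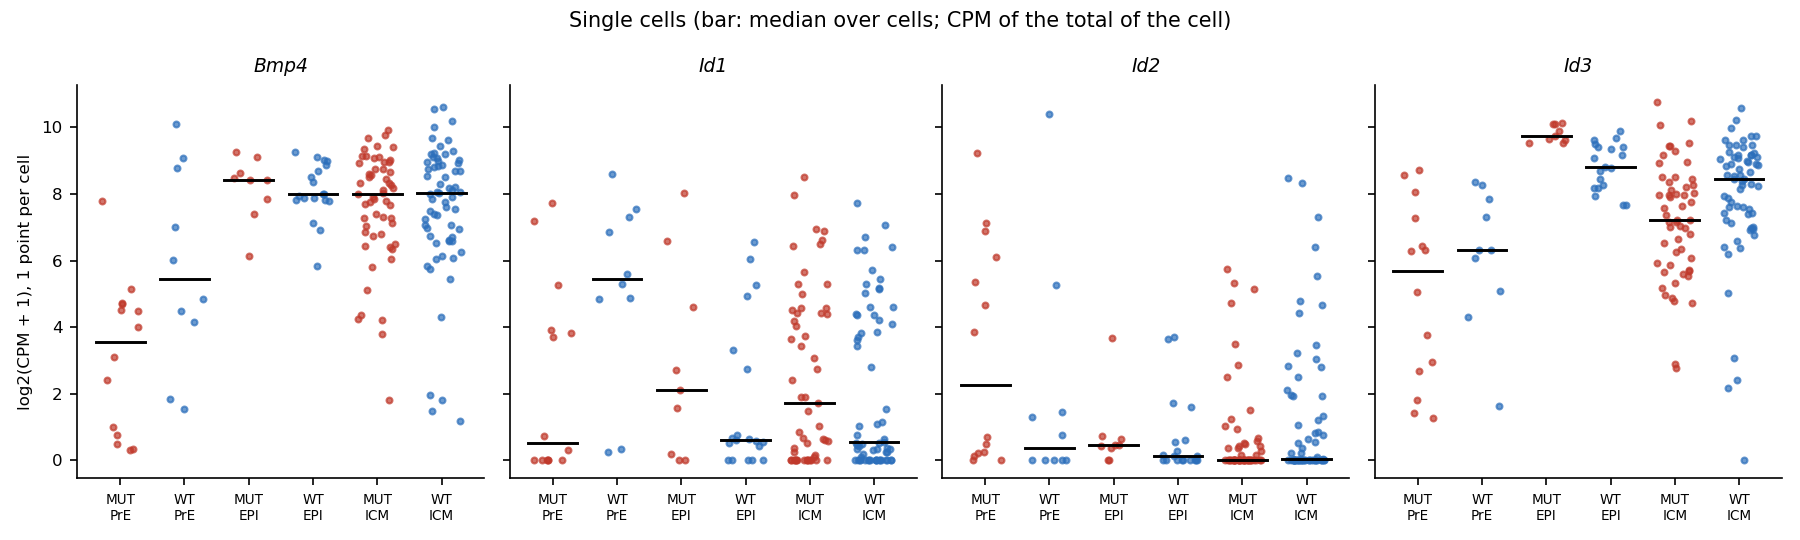
Level of Bmp4, Id1, Id2 and Id3 in each of 171 cells, as log2(CPM + 1), by group (red MUT, blue WT); bars are medians over cells. Id3 in MUT EPI cells has a median of 857 CPM against 444 CPM in WT EPI cells, and Id2 is at or near 0 in most EPI and ICM cells.

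Id1 (ENSMUSG00000042745, chromosome 2, 152736251 to 152737410, plus strand) varied widely between cells and between embryos. It stood at 22.1, 0, 75.2 and 2.60 CPM in MUT PrE embryos and at 95.3, 102 and 26.1 CPM in WT PrE embryos. In EPI it stood at 2.75, 3.14, 118 and 7.48 CPM in MUT embryos and at 19.5, 15 and 1.33 CPM in WT embryos. In WT every PrE sum lay above every EPI sum (log2 fold change 2.67, SE 1.03, p = 0.0378, adjusted p = 0.479). In MUT the change was −0.40 (SE 1.80, adjusted p = 0.994), and it ran from −1.99 without PrE embryo 4 to 2.43 without EPI embryo 4, the embryo with the highest value in both lineages. By cell, 8 of 14 MUT PrE and 10 of 10 WT PrE cells had a count, or an expected 48.1% and 84.3% of cells at 1000000 counts.

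The receptors were low and uneven. Bmpr1a, the type I receptor kinase (ENSMUSG00000021796, chromosome 14, 34410734 to 34503341, minus strand), averaged 24.5 ± 30.4 CPM in MUT PrE and 16.7 ± 11.1 in WT PrE, 10.6 ± 12.4 in MUT EPI and 19.4 ± 8.02 in WT EPI, and 23.2 ± 18.2 in MUT ICM and 15.7 ± 18.8 in WT ICM (SD over 3 to 5 embryos). Bmpr2, the type II receptor kinase (ENSMUSG00000067336, chromosome 1, 59763400 to 59879014, plus strand), averaged 31.6 ± 39.7 CPM in MUT PrE and 10.4 ± 11 in WT PrE, 10.1 ± 3.37 in MUT EPI and 5.25 ± 2.44 in WT EPI, and 6.0 ± 7.87 in MUT ICM and 17.6 ± 16.1 in WT ICM. The groups of each comparison overlapped for both receptors. Their adjusted p values across the 9 group comparisons lay between 0.479 and 1.0. Of ICM cells, 41 of 55 MUT and 42 of 64 WT had a Bmpr1a count. At 1000000 counts the expected shares were 62.9% in MUT and 41.2% in WT, leaving out 8 MUT and 3 WT cells below that depth.

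The transducers differed in abundance. Smad5 (ENSMUSG00000021540, chromosome 13, 56703010 to 56742377, plus strand) stood at 27.6, 26.3 and 25.3 CPM in the 3 WT EPI embryos. In WT PrE it stood at 8.64, 2.79 and 0.391 CPM, below all WT EPI embryos (log2 fold change −2.70, SE 1.15, p = 0.0548, adjusted p = 0.561). MUT embryos scattered, at 0.348, 0, 24 and 23.4 CPM in PrE and 33.9, 1.38, 52.0 and 1.67 CPM in EPI (−0.93, SE 1.84, adjusted p = 0.979). Smad1 (ENSMUSG00000031681, chromosome 8, 79338395 to 79399518, minus strand) was found in 45 cells. It stood at 0.0435, 16.8, 4.43 and 0.586 CPM in MUT PrE and 4.31, 3.34 and 28.6 CPM in WT PrE, and did not pass 2.70 CPM in any EPI embryo. Smad1 was higher in PrE than in EPI in 6 of 7 embryos, and the log2 fold changes were 2.80 in MUT (SE 2.20, adjusted p = 0.817) and 3.5 in WT (SE 1.93, adjusted p = 0.749). The Smad1 change in MUT was 1.06 without PrE embryo 2 and 5.21 without EPI embryo 1, and in WT it was 1.86 without PrE embryo 3, the single-cell sum.

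Set side by side per kilobase of annotated exon, Id3 and Bmp4 led in EPI and ICM of both genotypes. In MUT EPI the mean level was 456 CPM per kb for Id3 and 143 for Bmp4, and in WT EPI 264 for Id3 and 138 for Bmp4. In WT EPI Id1 followed at 10.3, Smad5 at 3.56, Bmpr1a at 3.06, Id2 at 0.494, Bmpr2 at 0.292 and Smad1 at 0.173 CPM per kb. Bmp2 and Bmp6 closed the order at 0.0429 and 0.00478. Neighbours in that order from Smad5 to Bmpr1a and from Id2 to Smad1 differed by less than their spread over embryos. In WT PrE Bmp4 stood at 79.1, Id2 at 67.3, Id1 at 64.3 and Id3 at 61.0 CPM per kb, all within their spread. The place of Id2 rests on the cell led by trophectoderm markers: without it the means were 103 for Bmp4, 78.6 for Id1, 59.2 for Id3 and 4.98 CPM per kb for Id2. In MUT PrE it was Id3 at 44.7, Id2 at 28.2, Id1 at 21.5 and Bmp4 at 9.52 CPM per kb. The sources used here do not give the library method, so a level per length assumes reads along the whole transcript.

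Over the 24 sums, the protein-coding genes whose log2(CPM + 1) followed Bmp4 most closely were Tdgf1 (Pearson's r 0.845), the Nodal co-receptor, and Pdpn (0.836). For Id3 they were Zfp42 (0.886), a marker of pluripotent cells, and Pramef17 (0.876). For Smad5 they were B9d2 (0.868) and Smyd5 (0.780), and for Bmp6 Fgfr3 (0.796), an FGF receptor, and Runx1 (0.773). For the other 6 members the closest gene had r between 0.659 and 0.720. These values describe sums that share embryos and lineages, over up to 7675 genes with a mean of at least 10 CPM.

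The rest of the pathway was read from lists of 58 other ligands, receptors and co-receptors, SMADs and their regulators, secreted antagonists, target genes and E proteins. In PrE against EPI of MUT embryos 22 of the 58 passed the filter on low counts, 14 with a change above 0 and 8 below. Of them 1 was called higher and 1 lower, where 1.65% of all genes were called. Gdf3, a ligand of the same family, fell by 2.20 on the log2 scale (SE 0.38, adjusted p = 0.0230). It stood at 41.5, 18.3, 62.9 and 29.3 CPM in MUT PrE embryos against 141, 158, 177 and 201 CPM in MUT EPI embryos. Bmper, a secreted BMP-binding regulator, rose by 7.65 (SE 1.12, adjusted p = 0.00974). Its EPI sums were at or near 0, so it was tested only through the PrE sums and its fitted change depends on the prior count. With the embryo as a block the adjusted p was 0.0877 for Gdf3 and 0.0792 for Bmper. Leaving out 1 sum lost the call of Gdf3 in 6 of 8 fits, all but those without PrE embryo 2 or 4 (adjusted p up to 0.0813), and left Bmper called in 8 of 8. Bmper stood at 14.9, 84.5, 10.1 and 75.9 CPM in MUT PrE embryos, and no EPI embryo of either genotype passed 0.343 CPM. WT PrE held 0.0629, 14.3 and 37.1 CPM of Bmper, the lowest value being in embryo 1, the one with the cell led by trophectoderm markers.

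In the fit of both genotypes the same pair was called, Gdf3 at −2.02 (SE 0.27, adjusted p = 0.00662) and Bmper at 7.16 (SE 1.32, adjusted p = 0.0222). Bmper lost that call without any 1 of the 4 MUT embryos or without WT embryo 2 or 3 (adjusted p 0.0569 to 0.0874). In the ICM, Bmper stood at 27.0 CPM in MUT embryo 10 and at 0 to 0.853 CPM in the other MUT embryos, against 0 to 1.476 CPM in WT. In the genotype, stage and WT lineage comparisons edgeR called 0 of the 24 to 31 listed genes tested, and 2 to 7 of them had an unadjusted p under 0.05, as 4.63% to 14.8% of all genes did. In MUT against WT PrE, 19 of 29 lay above 0 and 10 below, with a median of 0.28 against 0.03 over all genes tested. In EPI 11 of 24 lay above 0 (median −0.27 against 0.04), and in ICM 16 of 24 (0.56 against −0.05). Eng, a co-receptor, had the smallest p of the receptor list in PrE: 0 to 0.0951 CPM in MUT embryos and 0.952 to 24 CPM in WT embryos (log2 fold change −7.98, SE 2.20, p = 0.00695, edgeR adjusted p = 0.940, DESeq2 adjusted p = 0.000647). The MUT sums of Eng were at or near 0, so it was tested only through the WT sums and its fitted change depends on the prior count. Dusp9, a phosphatase gene induced by BMP in stem cells, had the smallest p of the target list in ICM. It stood at 1.57 to 15.5 CPM in MUT embryos and 0.0102 to 0.831 CPM in WT embryos (5.06, SE 1.59, p = 0.00617, edgeR adjusted p = 0.727, DESeq2 adjusted p = 0.00306). Dusp9 lies on the X chromosome, and 4 of 5 MUT but 2 of 5 WT embryos of E3.5 were female by Y-linked and Xist counts. With embryo sex as a covariate its change was 6.69 (SE 2.62, edgeR adjusted p = 0.732).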

How the data were processed

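Single cells were sequenced, and each sample is 1 cell. The authors deposited 1 table of raw read counts per gene for 171 cells. The aligner STAR, the counter HTSeq and the build mm10 are named in the submitters' processing notes, without versions, strand or counting settings. Of 49671 rows, 49412 matched GENCODE vM21, and the 259 others hold 0.0101% of counts. No 2 cells had identical columns.

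Counts were summed per embryo and lineage. The main test was edgeR 4.0.16 (R 4.3.3) with TMM scaling, filterByExpr at a minimum count of 10 and a robust quasi-likelihood F test. P values were Benjamini-Hochberg adjusted over all genes tested, with a threshold of 0.05. A SE is the absolute log2 fold change over the root of F and restates the test. P values measure spread between embryos, and intervals cover counting error only, at 95%.

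Alternatives were RLE scaling, no filter, DESeq2 1.42.0, limma-trend 3.58.1 on embryo means of log2(CPM + 1), without low cells (3 MAD), without sums under 3 cells, each embryo left out, embryo sex, title letter and a replicate block. Added after the data were seen were the fits without the trophectoderm-marker cell, of both genotypes together, and of the interaction with an embryo block. PrE and EPI of 1 embryo are paired because they come from the same animal; deviations of paired sums correlated at 0.0470 to 0.192 over 7942 genes.

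The members, gene lists and tests were chosen with earlier results of these data known. All members are named; of other lists, the genes named passed the test or had the smallest p of their list. Calculations were tested on simulated data. Tables and figures used Python 3.11.15, numpy 2.4.6, pandas 2.3.3, scipy 1.17.1 and matplotlib 3.10.9.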

Additional observations from a re-analysis of the deposited data

Results flagged for a closer look

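In 15 of 39 groups of 4 or 5 embryos tested, the highest embryo stood apart from the others by Dixon's criterion, which chance alone meets in about 5% of groups of normally distributed values. These CPM are skewed and often near 0, so that rate does not carry over, and no excess was tested. Values are CPM per embryo sum. Among the ligands, Bmp6 stood at 0.0429 CPM in MUT EPI embryo 1 with the others at 0. It stood at 7.15 CPM in WT ICM embryo 20, where the next embryo had 0.997 CPM. Bmp2 stood at 0.0286 CPM in WT ICM embryo 16 with the others at 0. Both Bmp2 in that group and Bmp6 in MUT EPI rest on 3 counts or fewer.

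Of the receptors, Bmpr1a stood at 69.9 CPM in MUT PrE embryo 1, where the next had 12.7, at 54.7 CPM in MUT ICM embryo 24 (next 23.2) and at 48.3 CPM in WT ICM embryo 21 (next 11.4). Bmpr2 stood at 90.7 CPM in MUT PrE embryo 2, where the next had 15.6. For the transducer Smad1 the values were 2.70 CPM in MUT EPI embryo 1, 2.53 CPM in MUT ICM embryo 24 and 10.7 CPM in WT ICM embryo 21.

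Of the Id genes, Id1 stood at 118 CPM in MUT EPI embryo 4 (next 7.48) and at 153 CPM in MUT ICM embryo 24 (next 30.5). Id2 stood at 5.88 CPM in MUT EPI embryo 1 (next 0.317) and at 66.4 CPM in WT ICM embryo 20 (next 18.7). Id3 stood at 819 CPM in WT ICM embryo 22 (next 412). MUT ICM embryo 24 was highest of its group for Bmpr1a, Smad1 and Id1, and WT ICM embryo 21 for Bmpr1a and Smad1.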

How the results depend on the processing

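Of 1468 log2 fold changes of members under alternatives, 1421 kept their side of the threshold, 21 passed it newly, 25 lost it and 1 reversed. Most had no call in the main fit to lose, and all 25 losses fell on its calls. In PrE against EPI of MUT, Bmp4 kept its call in 7 of 14 alternatives and Bmp6 in 3 of 14. In PrE against ICM of MUT, Bmp4 kept its call in 8 of 15. The sign changed in 119, of which 1 was called: Id3 in EPI against ICM of WT, −0.03 by edgeR, was 0.94 by limma-trend on embryo means (adjusted p = 0.0191). That fit also moved the median of all genes to 0.68, against −0.14. Where edgeR called 0 members, DESeq2 called 1 in MUT against WT EPI, 1 in MUT against WT PrE, 2 in PrE against EPI of WT, 1 in EPI against ICM of WT, 1 in PrE against ICM of WT and 1 in the PrE minus ICM interaction. Limma-trend called 3 in EPI against ICM of WT and 1 of MUT, 4 in PrE against ICM of WT, 2 of MUT (edgeR 1) and 2 in PrE against EPI of both genotypes, where the fit without the replicate block also called 2. In PrE against EPI of MUT edgeR called 2 members, no filter gave 1, leaving out sums under 3 cells 0, the replicate block 0, and leaving out 1 embryo 0 to 1. DESeq2 called 3 there, Id2 newly (adjusted p = 0.000262), and limma-trend 3, Id3 newly (0.0282). In PrE against ICM of MUT it called 1, against 0 without sums under 3 cells and 0 to 1 with 1 embryo left out. The causes were not tested. Over all genes, DESeq2 called 157, 187 and 108 in MUT against WT PrE, EPI and ICM and 333, 501 and 533 in the interactions (edgeR 0 each). It called 631 in PrE against EPI of MUT and 727 of WT, 414 and 1069 in EPI against ICM, and 556 and 1198 in PrE against ICM. Limma-trend called 3974 higher and 74 lower in EPI against ICM of WT, against 24 and 19, and 2012 higher and 59 lower in PrE against ICM of WT, against 32 and 14. In MUT it gave 210 and 13 against 5 and 3, and 554 and 76 against 30 and 31. It called 321 in PrE against EPI of MUT and 682 of both genotypes. Embryo sex as a covariate gave 217 in MUT against WT PrE, and the title letter in limma-trend 95 in ICM. Without a filter 32 were called in PrE against EPI of WT, 85 and 22 in EPI against ICM of WT and MUT, and 118 and 108 in PrE against ICM. Without sums under 3 cells 5 were called in PrE against EPI of MUT, 8 in PrE against ICM of MUT and 0 of WT. Leaving out 1 embryo gave 102 to 162 in PrE against EPI of MUT and 14 to 169 in PrE against ICM of MUT. MUT and WT embryos share numbers only; their deviations correlated at −0.0426 to 0.162, and a block on that number called 0 members. In the separate fits of each genotype the block on the embryo ended the calls of Bmp4 and Bmp6 in MUT. In the fit of both genotypes the adjusted p was 0.181 for Id2 and 0.0709 for Id3 with the block, against 0.0214 and 0.0398 without it. Depth limits Bmp2, Bmp6 and Smad1, found in 13, 35 and 45 of 171 cells.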
